A study of Homo sapiens with 6 samples.

Results

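CEACAM1, CEACAM5, CEACAM6 and CEACAM7 are adhesion molecules of the immunoglobulin superfamily on epithelial cells, and their transcripts were followed here in cells labelled Caco-2 with and without silencing of SDC1. The members were the probe sets whose only gene symbol in the platform annotation was one of these 4 genes, out of 19775 genes measured. This gave 12 probe sets, 5 of them for CEACAM1, 2 for CEACAM5, 2 for CEACAM6 and 3 for CEACAM7. The family was picked with the differences between the groups already known, CEACAM1 for a probe set with a large difference. Its differences between the groups are therefore given as a description with no test.

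The series held 6 arrays of total RNA from cells labelled Caco-2, an established line from a human colorectal adenocarcinoma. Of these, 3 came from cells transfected with a siRNA against SDC1, which encodes the heparan sulfate proteoglycan syndecan-1, and 3 from cells given a negative control siRNA, so both groups were transfected. The dose, the time to harvest and the siRNA sequences are not stated in the labels. The labels also do not say whether replicates were separate cultures, so the spread between arrays may be technical.

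CEACAM proteins bind one another, on the same cell or across cells, through an amino-terminal immunoglobulin-like domain. CEACAM1 spans the membrane, and its splice forms with a long cytoplasmic tail carry tyrosine motifs that recruit the phosphatases SHP-1 and SHP-2. CEACAM5 (carcinoembryonic antigen), CEACAM6 and CEACAM7 are held in the apical membrane by a glycosylphosphatidylinositol (GPI) anchor. In the colon the 4 proteins lie on the brush border of mature enterocytes, and CEACAM5 and CEACAM6 are often raised in colorectal cancer while CEACAM7 is often lost.

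The 4 genes lie on chromosome 19 and their upstream sequences show their common origin. The windows from 250 bases before to 50 bases after the start of each gene are printed because they show how much sequence the members share and which letters set CEACAM1 apart. They are from RefSeq, build GRCh38.p14, at chr19:42528432-42528731 on the minus strand for CEACAM1, chr19:41708376-41708675 on the plus strand for CEACAM5, chr19:41755280-41755579 on the plus strand for CEACAM6 and chr19:41688221-41688520 on the minus strand for CEACAM7. Each is written 5′ to 3′ on the gene's strand. Capitals mark matches on either strand to the E-box CACGTG, the GC box GGGCGG and the core of an interferon response element (GAAA, any 2 bases, and again GAAA), which do not overlap each other here.
CEACAM1: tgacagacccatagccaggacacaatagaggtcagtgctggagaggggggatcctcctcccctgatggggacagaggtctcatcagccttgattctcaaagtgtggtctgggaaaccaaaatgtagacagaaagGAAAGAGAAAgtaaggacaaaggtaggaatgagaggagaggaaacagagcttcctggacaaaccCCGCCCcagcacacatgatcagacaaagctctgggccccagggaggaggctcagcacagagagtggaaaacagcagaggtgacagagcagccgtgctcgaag
CEACAM5: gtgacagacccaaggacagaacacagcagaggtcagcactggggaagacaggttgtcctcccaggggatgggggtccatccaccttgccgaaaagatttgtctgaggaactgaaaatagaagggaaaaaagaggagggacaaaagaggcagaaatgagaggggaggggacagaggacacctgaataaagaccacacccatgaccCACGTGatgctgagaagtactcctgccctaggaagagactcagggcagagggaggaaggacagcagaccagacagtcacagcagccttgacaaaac
CEACAM6: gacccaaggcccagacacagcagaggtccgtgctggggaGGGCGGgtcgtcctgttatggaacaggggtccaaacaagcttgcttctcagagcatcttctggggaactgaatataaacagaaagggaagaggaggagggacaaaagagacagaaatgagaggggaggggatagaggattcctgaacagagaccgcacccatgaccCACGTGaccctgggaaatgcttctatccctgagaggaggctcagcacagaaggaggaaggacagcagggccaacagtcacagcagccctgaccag
CEACAM7: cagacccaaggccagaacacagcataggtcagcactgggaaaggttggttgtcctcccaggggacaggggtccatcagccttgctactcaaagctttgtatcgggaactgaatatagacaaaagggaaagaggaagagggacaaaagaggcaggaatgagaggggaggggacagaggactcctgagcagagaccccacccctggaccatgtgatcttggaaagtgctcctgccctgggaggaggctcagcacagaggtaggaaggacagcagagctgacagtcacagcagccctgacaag

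CEACAM5, CEACAM6 and CEACAM7 were closest to each other in these windows. In a global alignment CEACAM5 and CEACAM7 were identical at 81.4% of positions, CEACAM6 and CEACAM7 at 81.2%, and CEACAM5 and CEACAM6 at 75.9%. CEACAM1 was at 73.4% with CEACAM7, 68.7% with CEACAM6 and 67.1% with CEACAM5. Against 35099 windows of genes outside the CEACAM and PSG families, the CEACAM1 window had a median identity of 48.3% and a highest of 57.4%. The longest run of letters in all 4 windows was 9 bases.

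The motifs differed between the members. The E-box, a site bound by USF1 and USF2, began 46 bases before the start of CEACAM5 and 45 bases before that of CEACAM6, and its letters were not in the CEACAM1 and CEACAM7 windows. It was present in 7.26% of 35116 RefSeq promoter windows. The interferon response core, a site type bound by IRF1, was in the CEACAM1 window alone of the 4, 116 bases before the start, and in 3.57% of all windows. The GC box, bound by SP1 and SP3, was in the CEACAM1 and CEACAM6 windows and in 45.0% of all. The CEACAM7 window held none of these letters. A match describes the letters and shows no binding.

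Each deposited value is a log2 signal minus the median of the same probe set on the 6 arrays. A value above 0 is therefore above that probe set's own median, and levels cannot be compared between genes. A rough brightness was read from the steps in which the numbers are stored (log2 signal 8 to 16, 4 to 8, or below 4). None of the 12 CEACAM probe sets was in the class from 8 to 16. Of the 12, 6 were at 4 to 8, comprising 3 for CEACAM1 and 1 for each other gene, and 6 were below 4. Below 4 were also 37.5% of all probe sets. The target was lower on every silenced array. The SDC1 probe set 201286_at was at 0.37, 0.36 and 0.33 in control replicates 1 to 3 and at -0.49, -0.61 and -0.33 in SDC1 siRNA replicates 1 to 3, and the other SDC1 probe set, 201287_s_at, differed by -0.85 ± 0.09 (log2, standard error).

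Markers of the labelled cell type went partly against the label. The identity of the cells is therefore in doubt, and Caco-2 is used here as the name the labels give. Of 13 enterocyte and colorectal epithelial markers, the general epithelial genes EPCAM, CDH1, KRT8 and KRT18 were in the class from 8 to 16. VIL1, CDX2, LGALS4 and ALPI were at 4 to 8, while CDH17, KRT20, FABP1, APOA1 and SI had no probe set above the class below 4. Among 6 granulocyte markers, listed because granulocytes also carry CEACAM1 and CEACAM6, 4 were below 4 (CEACAM8, FCGR3B, MPO and S100A8), and CSF3R and ELANE were at 4 to 8. None of these 19 genes passed the limma test across all genes. The mean over the granulocyte markers ran from -0.16 to 0.02 on control arrays and from -0.03 to 0.06 on SDC1 siRNA arrays, and that over the enterocyte markers from -0.12 to 0.02 and from -0.02 to 0.06. Of 3 endothelial markers, VWF was in the class from 8 to 16 and CDH5 and PECAM1 at 4 to 8, and their mean ran from -0.18 to -0.11 on control arrays and from 0.06 to 0.11 on SDC1 siRNA arrays. Of 4 fibroblast markers, COL1A1 was in the class from 8 to 16 and COL3A1, DCN and LUM at 4 to 8, with means from -0.02 to 0.31 and from -0.11 to -0.00. Of 3 measured markers of other blood cells, PTPRC was below 4 and CD14 and CD3E at 4 to 8, with means from -0.09 to 0.12 and from -0.02 to 0.09. None of these 10 genes passed either. The part of any of these cell type markers in the values below was not tested.

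CEACAM1 was read by 5 probe sets that disagreed. In 209498_at the signal was -0.28, -0.41 and -0.26 in control replicates 1 to 3 and 0.26, 0.26 and 0.39 in SDC1 siRNA replicates 1 to 3. Every SDC1 siRNA array was above every control array, and the gap between the groups was wide against the spread within each (SD 0.08 in both, n = 3). The difference was 0.62 ± 0.09 (log2, standard error), a 1.53-fold higher signal with SDC1 siRNA, with a 95% interval from 0.42 to 0.82. In size it stood at place 58 among 54613 probe sets. CEACAM1 was picked for this large difference, so the interval and the place describe it and are no test. The intervals of the other CEACAM probe sets and genes likewise take no account of how the family was picked.

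The 211883_x_at probe set gave a smaller difference in the same direction. Its values were -0.14, -0.02 and -0.21 with control siRNA and 0.02, 0.34 and 0.31 with SDC1 siRNA. The groups did not overlap, but control replicate 2 and SDC1 siRNA replicate 1 were close. The difference was 0.35 ± 0.11, with a 95% interval from 0.10 to 0.60, and the probe set was in the class below 4. The ending _x_at marks probes that may match other genes.

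The other 3 CEACAM1 probe sets had overlapping groups. In 206576_s_at the control arrays lay at 0.02, -0.09 and -0.02 and the SDC1 siRNA arrays at 0.25, 0.34 and -0.04. SDC1 siRNA replicates 1 and 2 were above all controls and replicate 3 lay among them, so the difference of 0.21 ± 0.11 rested on those 2 arrays. The 210610_at probe set was at 0.22, -0.12 and 0.06 against 0.01, -0.10 and -0.01, a difference of -0.09 ± 0.10. The 211889_x_at probe set was at -0.11, -0.03 and 0.30 against 0.10, -0.03 and 0.03, a difference of -0.02 ± 0.12, with the highest value in control replicate 3.

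**Figure D1:**
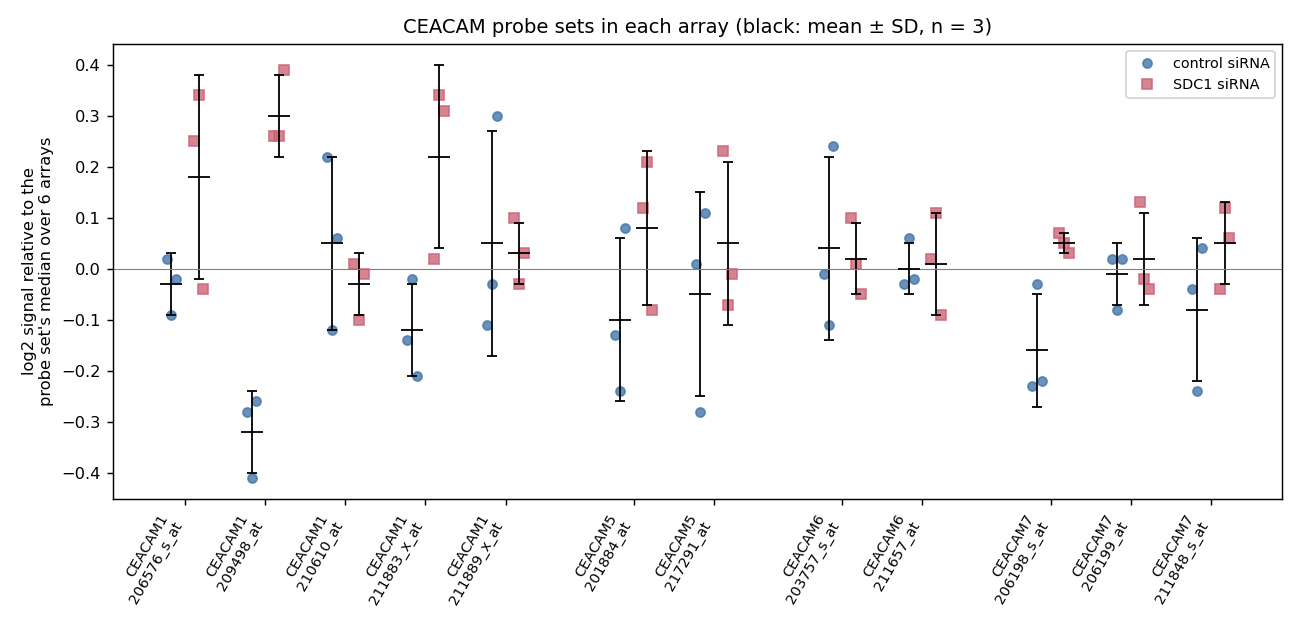
Log2 signal minus the probe set's own median (vertical axis) for the 12 CEACAM probe sets (horizontal axis), with circles for control siRNA, squares for SDC1 siRNA, and black bars for the mean ± SD of 3 arrays. In 209498_at the control arrays lie at -0.26 or lower and the SDC1 siRNA arrays at 0.26 or higher, while 9 of the 12 probe sets have overlapping groups.

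The same values can be written as gaps within single arrays, which restate the disagreement above and add no support to it, since 209498_at was picked for its difference. Set against 210610_at of the same brightness class, 209498_at was lower by 0.50, 0.30 and 0.31 on the control arrays, relative to their medians, and higher by 0.25, 0.36 and 0.40 on the SDC1 siRNA arrays. The gap between these probe sets moved by 0.71 (log2) between the groups. It moved by 0.64 against 211889_x_at, 0.40 against 206576_s_at and 0.27 against 211883_x_at. In the last of these the groups overlapped, with SDC1 siRNA replicate 2 at -0.09 below control replicate 3 at -0.05. The sources used here do not say which exons or splice forms each probe set reads, so the values cannot be assigned to the long-tailed or short-tailed forms of CEACAM1.

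**Figure D2:**
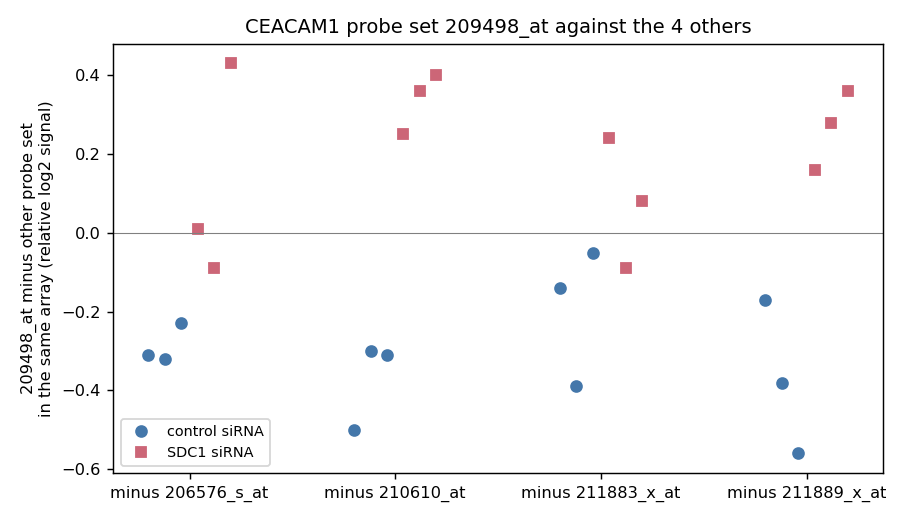
Relative log2 signal of CEACAM1 probe set 209498_at minus that of each of the other 4 CEACAM1 probe sets in the same array (vertical axis), with circles for the 3 control arrays and squares for the 3 SDC1 siRNA arrays. The picture redraws the values of the 5 probe sets as differences and is no separate evidence; the mean gap moves by 0.71 against 210610_at, and the groups overlap against 211883_x_at.

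As a gene, CEACAM1 was set to the mean of its 3 probe sets at 4 to 8. It lay at -0.01, -0.21 and -0.08 on the control arrays and at 0.17, 0.17 and 0.11 on the SDC1 siRNA arrays. The groups were separate, as in that direction for 8.26% of all genes, with a difference of 0.25 ± 0.07 (1.19-fold, 95% interval 0.08 to 0.42). The 3 probe sets differed by 0.62 (209498_at), 0.21 (206576_s_at) and -0.09 (210610_at), and the last 2 had overlapping groups. The gene value thus includes the probe set that CEACAM1 was picked for and is no separate result. The mean of all 5 probe sets gave 0.21.

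CEACAM5, the carcinoembryonic antigen used as a serum marker of colorectal cancer, had overlapping groups in both probe sets. In 201884_at the control arrays were at -0.13, -0.24 and 0.08 and the SDC1 siRNA arrays at 0.12, 0.21 and -0.08. Replicate 3 of each group lay on the side of the other group, and the difference was 0.18 ± 0.12 (95% interval -0.08 to 0.44). The 217291_at probe set was at 0.01, -0.28 and 0.11 against 0.23, -0.07 and -0.01, with control replicate 2 far below the rest, and a difference of 0.11 ± 0.13. Without that array its difference was -0.00. The 201884_at probe set was in the class below 4.

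CEACAM6, a GPI-anchored receptor that also binds bacterial adhesins, had the smallest differences of the 4 genes. The 211657_at probe set was at -0.03, 0.06 and -0.02 with control siRNA and at 0.02, 0.11 and -0.09 with SDC1 siRNA, a difference of 0.01 ± 0.09. The 203757_s_at probe set, in the class below 4, was at -0.01, -0.11 and 0.24 against 0.10, 0.01 and -0.05, a difference of -0.03 ± 0.11. Both groups lay around 0 with no side of their own. The 95% intervals ran from -0.19 to 0.21 and from -0.27 to 0.22.

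CEACAM7, which in normal colon marks the highly differentiated surface cells, had 3 probe sets above 0, of which 1 kept its groups apart. In 206198_s_at the control arrays were at -0.23, -0.03 and -0.22 and the SDC1 siRNA arrays at 0.07, 0.05 and 0.03. The SDC1 siRNA arrays were close together just above control replicate 2, and the difference was 0.21 ± 0.09 (95% interval 0.01 to 0.41). This probe set was in the class below 4, as was 206199_at, which differed by 0.03 ± 0.09. The 211848_s_at probe set at 4 to 8 was at -0.04, -0.24 and 0.04 against -0.04, 0.12 and 0.06, a difference of 0.13 ± 0.10 with overlapping groups.

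Of the 12 probe sets, 9 had a difference above 0 and 3 below it, and the median was 0.12, where the median over all 54613 probe sets was 0.00. The groups did not overlap in 3 of them, all higher with SDC1 siRNA, against 7.06% of all probe sets in that direction, and in 0 of them lower, against 7.42%. In the limma fit across all probe sets with Benjamini-Hochberg adjustment, 0 of 54613 (0.0%) passed an adjusted p of 0.05, the CEACAM probe sets among them, and 4547 (8.33%) were at an unadjusted p under 0.05. Because the members were picked on this comparison, nothing is read from their counts. By size the genes ran from CEACAM1 (0.25) through CEACAM7 (0.13) and CEACAM5 (0.11) to CEACAM6 (0.01), and the 95% intervals of all neighbours in this order overlapped. The order of CEACAM7 and CEACAM5 depended on the probe sets used. Without _x_at and _s_at probe sets CEACAM7 was at 0.03 and CEACAM5 at 0.11. As means of all their probe sets they were at 0.12 and 0.15.

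The rest of the family was measured in 14 genes. The other CEACAM genes, mostly of granulocytes or with little known function, had 8 probe sets in 5 genes. Of these, 217209_at for CEACAM3, a granulocyte receptor that takes up bacteria, was at -0.25, -0.20 and -0.13 with control siRNA and at 0.24, 0.26 and 0.13 with SDC1 siRNA. The groups were apart by more than their spread, but the difference of 0.40 ± 0.08 did not pass across all probe sets (limma adjusted p = 0.358) and the probe set was in the class below 4. The other 2 CEACAM3 probe sets were at 0.18 and 0.14. This probe set was picked after its value was seen. CEACAM4, CEACAM8 and CEACAM21 were at -0.05, -0.05 and -0.01 as genes, and CEACAM19 at 0.13. Over the 8 probe sets 5 differences were above 0, and the median was 0.13.

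The pregnancy-specific glycoproteins (PSG genes), secreted members of the same family that are made mainly by the placenta, had differences mostly above 0. Of 16 PSG probe sets in 9 genes, 15 were above 0, the groups did not overlap in 11, all higher with SDC1 siRNA (7.06% of all probe sets), and 0 passed across all probe sets. The lowest limma adjusted p was 0.342, and 10 were at an unadjusted p under 0.05 (8.33% of all probe sets). PSG6 was at -0.15, -0.28 and -0.12 on control arrays and at 0.20, 0.21 and 0.12 on SDC1 siRNA arrays, with no overlap, and the difference of 0.36 ± 0.07 had a limma adjusted p = 0.16 across genes. PSG7 (0.31 ± 0.07) and PSG9 (0.29 ± 0.07) were next, each at a limma adjusted p = 0.188. Of the 16 probe sets, 14 were of the _x_at or _s_at types that may read several genes. The PSG genes are close copies of each other, so these values do not count as separate measurements. The median over the 16 was 0.21 also after quantile normalization and after centring arrays, when 16 and 15 were above 0. RMA had already quantile normalized the arrays, so these settings could move little and add no support.

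**Figure D3:**
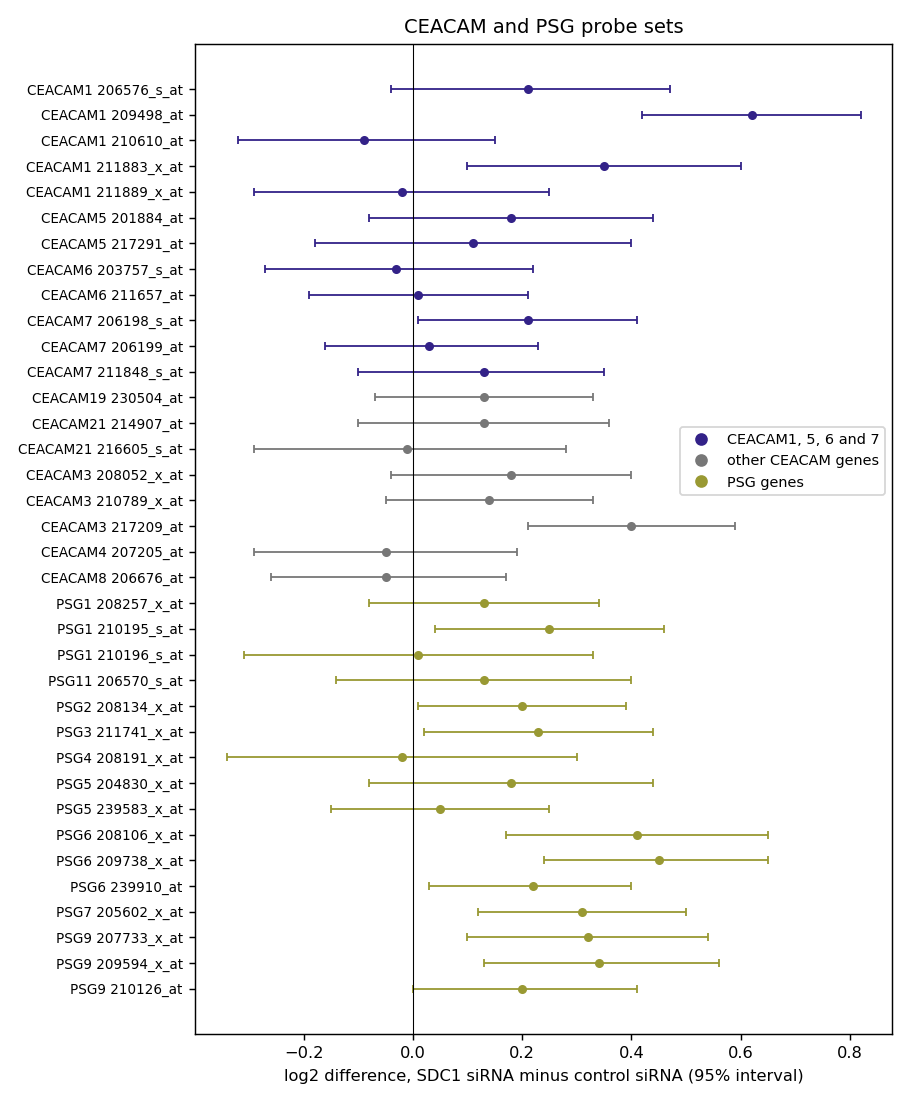
Log2 difference, SDC1 siRNA minus control siRNA, with its 95% interval (horizontal axis) for the probe sets of the CEACAM and PSG families (vertical axis), coloured by subgroup. CEACAM1 209498_at stands furthest to the right at 0.62, CEACAM6 lies at 0, and 15 of 16 PSG probe sets lie above 0.

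Along the chromosome, the genes next to the members did not pass either. Among measured genes, CEACAM1 lies between CXCL17, a mucosal chemokine, and CEACAM8. CXCL17 was at 0.25 ± 0.07 with separate groups (limma adjusted p = 0.288), LIPE, the hormone-sensitive lipase, at 0.08 ± 0.16, the long antisense transcript LIPE-AS1, whose span in the reference covers CEACAM1, at 0.20 ± 0.11, and CEACAM8 at -0.05 ± 0.08. CEACAM7, CEACAM5 and CEACAM6 lie side by side between CEACAM4 (-0.05 ± 0.10) and CEACAM3 (0.16 ± 0.07, limma adjusted p = 0.477). CEACAM3 also had separate groups, higher with SDC1 siRNA. Next beyond CEACAM3 was LYPD4 at -0.09 ± 0.11. Beyond CEACAM8 lay PSG3 at 0.23 ± 0.08 (limma adjusted p = 0.379) and PSG1 at 0.19 ± 0.08 (limma adjusted p = 0.437), both with separate groups, higher with SDC1 siRNA. Groups were separate in that direction for 8.26% of all genes. LOC105372404 was at 0.29 ± 0.13 with overlapping groups, CEACAM21 at -0.01 ± 0.12 and DMRTC2 at 0.00 ± 0.11. CXCL17, PSG3 and PSG1 were at unadjusted p values of 0.00722, 0.0221 and 0.0367. In all, 0 of the 12 nearest measured genes of the 2 blocks passed. Over all genes 5 of 19775 (0.0253%) passed and 2100 (10.6%) were at an unadjusted p under 0.05.

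Of 31 signalling and binding partners of CEACAM1, 26 were measured and 0 passed, beside 0.0253% of all genes. Differences were above 0 in 17 and below in 9, with a median of 0.04 beside 0.01 over all genes. At an unadjusted limma p under 0.05 were 2 of the 26, beside 10.6% of all genes. EGFR, the growth factor receptor whose signalling CEACAM1 can restrain, was at -0.12, -0.08 and -0.13 on control arrays and at 0.13, 0.03 and 0.11 on SDC1 siRNA arrays. Its groups did not overlap, as in that direction for 8.26% of all genes, and the difference of 0.20 ± 0.07 had a limma adjusted p = 0.333. GNE, the enzyme that starts sialic acid synthesis, was at -0.27 ± 0.10 with overlapping groups. The toll-like receptor TLR4 was at 0.16 ± 0.08 and the tropomyosin TPM1 at -0.12 ± 0.07. The phosphatases PTPN6 (SHP-1) and PTPN11 (SHP-2) were at -0.11 ± 0.13 and 0.09 ± 0.07, and the kinase SRC at 0.01 ± 0.07.

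Transcription factors listed for CEACAM promoters, a set wider than the factors of the 3 motifs above, did not pass. Of 20 listed, 18 were measured, 10 above 0 and 8 below, with a median of 0.02. Just 1 was at an unadjusted limma p under 0.05, beside 10.6% of all genes. This was TFAP2C, an AP-2 factor, at 0.20 ± 0.07 (limma adjusted p = 0.384). The others with the lowest p were HIF1A at 0.19 ± 0.10, MYC at 0.15 ± 0.08 and USF1 at -0.14 ± 0.08. Of the factors named with the motifs, USF2 was at -0.08 ± 0.07, SP1 at 0.03 ± 0.09 and SP3 at 0.10 ± 0.09. IRF1 was at 0.01 ± 0.09. Of 8 splicing factors listed for the alternative cytoplasmic exon of CEACAM1, 7 were measured, 1 above 0 and 6 below, with a median of -0.03. Over all genes 52.1% were above 0. Among the 7, 0 were at an unadjusted limma p under 0.05, beside 10.6% of all genes (lowest limma adjusted p = 0.702). With 7 genes, a count of 0 shows no departure from that share. ESRP1, an epithelial splicing regulator, was at -0.09 ± 0.07, HNRNPA1 at -0.11 ± 0.09, HNRNPM at -0.04 ± 0.08 and HNRNPL at -0.03 ± 0.09.

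The machinery that builds the GPI anchor of CEACAM5, CEACAM6 and CEACAM7 had more differences below 0 than above, and none passed. Of 33 genes, 30 were measured, 10 above 0 and 20 below, with a median of -0.07 beside 0.01 over all genes. The groups did not overlap in 10, all lower with SDC1 siRNA (8.47% of all genes). Another count, at an unadjusted limma p under 0.05, held 6 (10.6% of all genes), and 0 passed. PIGM, the mannosyltransferase that adds the initial mannose of the anchor, was at 0.20, 0.23 and 0.27 on control arrays and at -0.24, -0.16 and -0.12 on SDC1 siRNA arrays. Its groups lay well apart, and the difference was -0.41 ± 0.07 with a limma adjusted p = 0.109. PIGB and PIGV, mannosyltransferases of later steps, were at -0.21 ± 0.07 and -0.24 ± 0.08, and PIGK, the catalytic subunit of the transamidase that attaches proteins to the anchor, at -0.30 ± 0.11.

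Of 33 other adhesion molecules of the gut surface, 31 were measured, 17 above 0 and 14 below, with a median of 0.01, the same as over all genes. L1CAM, an immunoglobulin-type adhesion molecule of nerve and invading tumour cells, was at -0.19, -0.18 and -0.16 against 0.03, 0.04 and 0.16. Its groups were separate, as in that direction for 8.26% of all genes, with a difference of 0.25 ± 0.07 (limma adjusted p = 0.273). CLMP, a tight junction molecule needed for normal gut growth, was at -0.35 ± 0.12, MCAM at 0.33 ± 0.13 and ALCAM at 0.18 ± 0.08, and none of them passed. EPCAM, the general epithelial adhesion molecule, was at 0.01 ± 0.10.

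**Figure D4:**
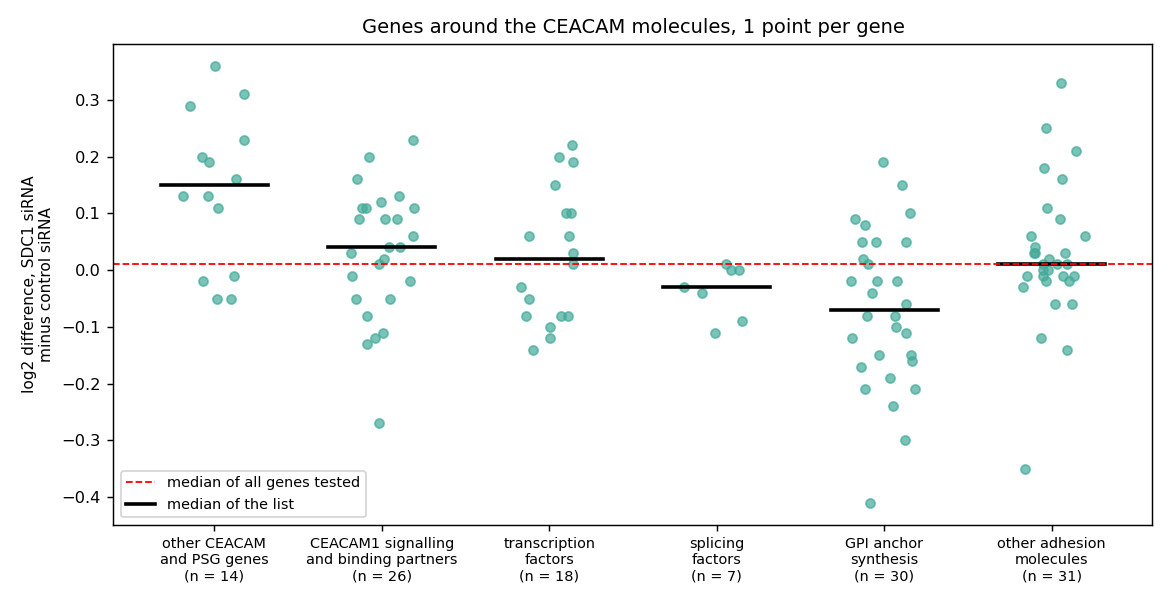
Log2 difference, SDC1 siRNA minus control siRNA (vertical axis), for each gene of the 6 lists around the CEACAM molecules (horizontal axis, 1 point per gene), with black bars for list medians and a dashed line for the median of all genes. The medians run from -0.07 for GPI anchor synthesis to 0.15 for other CEACAM and PSG genes, and 0 genes of these lists passed the threshold.

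Over the 6 arrays, the gene values most like those of CEACAM1 by Pearson correlation were MAML3-AS1 (r = 0.995), SUCLG1 (0.992), a subunit of the mitochondrial enzyme succinyl-CoA ligase, and a gene listed only under a clone name (0.991). For the probe set 209498_at they were KREMEN2 (0.998), a Wnt-pathway receptor, IKBKB-DT (0.996) and the cadherin CELSR2 (0.995). For CEACAM5 they were LOC101927610 (1.0), ADAMTS12 (0.989) and SH2D5 (0.989), for CEACAM6 LINC02504 (0.997), NFKBIE (0.994) and GSN-AS1 (0.99), and for CEACAM7 MYORG (0.997), CSPG4P1Y (0.997) and TSPAN18 (0.995). With only 6 arrays, high values are common. An r above 0.9 was reached by 361 genes with CEACAM1, 350 with 209498_at, 155 with CEACAM5, 61 with CEACAM6 and 415 with CEACAM7. The correlations span both groups. All genes named for CEACAM1 and for 209498_at had separate groups, higher with SDC1 siRNA, so their likeness includes the difference between the groups. The r values are descriptions of likeness over the same arrays.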

How the data were processed

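The deposited log2 values came from RMA (background correction, quantile normalization and probe set summary), per the submitters' processing notes, which give no version. The log base and the centring (median 0 for 54675 of 54675 probe sets, tolerance 1e-06) were read from the values. Centring removes levels. The brightness class rests on storage steps, and chance can place a probe set too high or a probe set that crosses a bound too low. Groups and replicate numbers came from titles, and columns from their sample names. After leaving out 62 control probe sets, 54613 were fitted with limma 3.58.1 in R 4.3.3 (lmFit, eBayes, group as the only term, Benjamini-Hochberg, threshold 0.05). Genes were fitted as the mean over a gene's probe sets in its brightest class. Errors on differences are moderated standard errors. Symbols were updated through Entrez identifiers in RefSeq. The 4 members matched 4 promoter windows, aligned with Biopython 1.88 (match 1, mismatch -1, gap -2, extension -0.5).

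Members and gene lists were chosen with earlier results of these data known. Named genes were the members and SDC1, up to 3 other family genes by size, up to 4 per other list by p, the 3 most alike per member, and the 3 nearest on each side in the reference order. PTPN6, PTPN11, SRC, USF2, SP1, SP3, IRF1, EPCAM and the marker genes were added by their role. CEACAM19 was added as the remaining other CEACAM gene measured. The fit was run on simulated arrays with independent noise and planted changes. That run checked only the mean estimate of those changes, which such a fit recovers by construction, so it adds no support. Alternatives were each array left out, a replicate block, quantile normalization again, median centring, array weights, a robust fit, brighter classes, other probe set rules and other thresholds. The labels name no scan date or batch, and none was tested. The number of arrays limits the precision.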

Additional observations from a re-analysis of the deposited data

How the results depend on the processing

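The differences of the 12 CEACAM probe sets and 4 genes moved by less than the SD between replicates in all 194 combinations of difference and setting. For many of these no other outcome was possible. Leaving out 1 of the 3 arrays of a group cannot move a difference by that SD. The replicate block, the robust fit and the brighter classes left every difference they covered as it was. Repeating quantile normalization or centring arrays could move the differences little, since RMA had already normalized the arrays. Without control replicate 2, CEACAM5 217291_at fell from 0.11 to -0.00, and this counted as less than that SD. The widest ranges without 1 array were 0.13 to 0.33 for CEACAM1 206576_s_at and -0.10 to 0.10 for 211889_x_at. CEACAM1 209498_at ran from 0.57 to 0.65 and 211883_x_at from 0.29 to 0.45. The number of probe sets past the threshold, 0 in the fit of the report and 0 without any 1 array, was 3 with array weights and 2 among brighter classes, with 0 CEACAM probe sets in either. The number of genes, 5 in the report's fit, was 39 with array weights, 11 among brighter classes, 9 after quantile normalization, 3 when each gene was the mean of its probe sets, 0 at an adjusted p of 0.01 and 0 to 1 without 1 array (1 without control replicate 3, 0 without any other). No gene of the 6 lists passed in any of these fits. With the replicate number as a block 0 genes passed. Deviations of same-numbered arrays from their group means had correlations of 0.065, -0.19 and 0.063 for numbers 1, 2 and 3. With 3 arrays in each group, these values cannot decide whether the numbers pair the arrays. The labels state no pairing. Low signal limits the 6 CEACAM probe sets in the class below 4.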
